A study of Homo sapiens with 2 samples.

Results

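The GATA factors GATA1 to GATA6 and their FOG cofactors ZFPM1 (FOG1) and ZFPM2 (FOG2) were examined in cells derived from the human embryonic stem cell line H1, 4 days into hematopoietic differentiation. The genes were found by matching NCBI Gene numbers to symbols, and all 8 were present among the 17397 genes listed in both deposited tables. One library came from WT H1 cells and 1 from H1 cells with the genotype MEIS2-/-. Both cultures had received 50 ng/ml activin A with 40 ng/ml BMP4 for 2 days, followed by 40 ng/ml VEGF with 50 ng/ml bFGF for another 2 days. According to the methods, the mutant lines were colonies grown from single cells after lentiviral delivery of Cas9 with a guide against exon 3 of MEIS2 and selection with puromycin. Of the 2 homozygous clones made, the sequenced one is not named, and no source states whether the WT cells had carried the vector.

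GATA factors are zinc finger proteins that bind the DNA sequence from which they take their name. GATA1, GATA2 and GATA3 are best known from blood, where GATA2 acts in stem and progenitor cells, GATA1 drives erythroid and megakaryocyte maturation, and GATA3 specifies T cells. GATA2 and GATA3 also act in trophectoderm. GATA4, GATA5 and GATA6 are known from endoderm and heart. FOG proteins do not contact DNA at GATA sites themselves; they bind the amino-terminal zinc finger of a GATA factor and bring in repressor complexes such as NuRD and CtBP.

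The values are FPKM, fragment counts scaled by the length of the transcript and by the mapped fragments of the library, so levels of different genes within a library can be set side by side. Log2 fold changes compare log2(FPKM + 0.1) of MEIS2-/- cells with that of WT cells, a scale on which changes of low genes come out too small. A gene was counted as lower or higher when it reached 1 FPKM in at least 1 library and differed at least 2-fold. With 1 library per genotype the spread between samples is unknown, the files hold no replicate to check a difference against, and no test was made. The sequencing depth is unknown, and a search for steps of 1 read among low values did not recover it. In bulk RNA, fewer cells that express a gene and less RNA per cell cannot be told apart. MEIS2 mRNA, the targeted gene, was at 10.85 FPKM (WT) and 3.44 FPKM (MEIS2-/-), a log2 fold change of -1.63.

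Of the 8 genes, 7 passed the level of 1 FPKM. In MEIS2-/- cells GATA2 and ZFPM2 had fallen at least 2-fold, none was at least 2-fold higher, and the other 5 lay within 2-fold. Across all 13075 genes that passed the same level, 7.97% were at least 2-fold lower and 7.84% at least 2-fold higher, with a median log2 fold change of 0.12. The median over the 7 genes was -0.15. A count of 2 among 7 rests on too few genes to be set apart from that background.

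GATA2, the factor of hematopoietic stem cells and hemogenic endothelium, was the most abundant GATA mRNA in WT cells. It was listed at 89.90 FPKM in the WT library against 39.95 FPKM in the MEIS2-/- one, so that 44.4% of the WT level remained, with a log2 fold change of -1.17. Its place among all listed genes went from 808 to 2061, counted from the highest. Among all genes that passed 1 FPKM, 6.29% had a more negative log2 fold change. Among the 1243 genes at 50 to 200 FPKM in WT cells, a band chosen after the value of GATA2 was seen, 8.05% were at least 2-fold lower.

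GATA3, the T cell and trophectoderm factor, was level between the libraries. It was listed at 55.06 FPKM (WT) and 55.40 FPKM (MEIS2-/-), a log2 fold change of 0.01. Its sign depended on the scaling, since the value was -0.11 after the scaling that sets the median ratio of well-expressed genes to 1. The ratio of GATA2 to GATA3, which no rescaling between libraries can change, was 1.63 in WT cells and 0.721 in MEIS2-/- cells. GATA2 therefore stood above GATA3 in WT cells and below it in MEIS2-/- cells.

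The promoters of GATA2 and GATA3 are printed because the mRNAs of these close relatives differed most clearly among the abundant members. RefSeq promoter windows on GRCh38.p14 were given for 5 of the 8 genes. GATA2 has 2 windows on the minus strand of chromosome 3, and the 250 bases before each start lie at chr3:128493202-128493451 (upstream start) and chr3:128488531-128488780 (downstream start). The first of 6 GATA3 windows lies on the plus strand at chr10:8045083-8045332. Capitals mark TGACAG, the short core recognised by MEIS proteins, read on either strand.
GATA2 upstream start: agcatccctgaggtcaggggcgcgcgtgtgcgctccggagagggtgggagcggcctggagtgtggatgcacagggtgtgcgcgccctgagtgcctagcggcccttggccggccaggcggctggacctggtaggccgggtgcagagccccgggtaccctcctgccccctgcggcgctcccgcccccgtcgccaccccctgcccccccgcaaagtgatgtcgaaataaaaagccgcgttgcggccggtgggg
GATA2 downstream start: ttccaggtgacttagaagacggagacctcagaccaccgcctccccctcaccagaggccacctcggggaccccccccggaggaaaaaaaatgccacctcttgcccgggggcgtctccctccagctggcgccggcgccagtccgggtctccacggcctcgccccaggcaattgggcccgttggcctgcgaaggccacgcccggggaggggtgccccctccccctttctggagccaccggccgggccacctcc
GATA3 first start: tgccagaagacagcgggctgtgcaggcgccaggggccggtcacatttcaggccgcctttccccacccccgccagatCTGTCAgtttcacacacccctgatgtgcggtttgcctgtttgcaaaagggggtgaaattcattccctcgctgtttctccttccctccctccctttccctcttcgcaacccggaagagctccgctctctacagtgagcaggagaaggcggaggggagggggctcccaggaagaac

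The 250 bases were rich in G and C, at 72.8% and 71.2% in the windows of GATA2, against a median of 58.0% over all promoters. The printed GATA3 window had 60.8%, and the other GATA3 windows ran from 55.6% to 74.8%. Windows 4 and 5 of GATA3, which overlap its exons, had 74.8% and 73.6% and held no TGACAG. The printed window therefore does not set GATA3 apart from GATA2. Including the 50 bases after the start, neither GATA2 window held TGACAG on either strand, whereas 3 of the 6 GATA3 windows held it. In the GATA3 window printed above, the word begins at position -174 from the start, on the strand opposite to the gene. TGACAG was present in 15.8% of the 35116 promoter windows of that length. The GATA words AGATAA or AGATAG and the words TGATAA or TGATAG, of which at least 1 stood in 24.97% of all windows on either strand, were found in none of the 11 windows of GATA1, GATA2, GATA3, GATA6 and ZFPM1. These are matches of letters in a short window, and distal enhancers were not searched.

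GATA1, the erythroid and megakaryocyte factor, was low in both libraries, at place 13725 of 17397 from the highest in WT cells and place 16618 in MEIS2-/- cells. It was listed at 0.47 FPKM in the WT library against 0.01 FPKM in the MEIS2-/- one and did not pass the level of 1 FPKM in either. The log2 fold change of GATA1 was -2.37, but with such low values it was set by the pseudocount, and ran from -4.58 with 0.01 FPKM added to -0.54 with 1 FPKM added. Values this low, from libraries of unknown depth, give no usable fold.

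The endoderm and heart members were all well expressed and stayed within 2-fold. GATA4, a factor of heart and foregut endoderm, was at 71.37 FPKM (WT) and 65.34 FPKM (MEIS2-/-), a log2 fold change of -0.13. GATA6, required for primitive and definitive endoderm, was at 72.52 FPKM and 55.42 FPKM, with the most negative log2 fold change of the group, -0.39. GATA5, a factor of endocardium and endoderm, was the lowest of the group and the one with a higher value in MEIS2-/- cells, at 26.14 FPKM and 29.45 FPKM, a log2 fold change of 0.17. Their median log2 fold change was -0.13, and all kept their sign under the 3 scalings tried. The difference of 1.15 FPKM between GATA6 and GATA4 in WT cells and that of 0.02 FPKM between GATA6 and GATA3 in MEIS2-/- cells are too small to give these neighbours an order.

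The question posed by the grouping is whether the blood members moved apart from the endoderm and heart members. The blood class was not uniform. With GATA1 under the level of 1 FPKM, its median log2 fold change of -0.58 is the midpoint between GATA2 at -1.17 and GATA3 at 0.01. Counting GATA1 as well, the median became -1.17, the value of GATA2. Thus GATA3 lay with GATA4 to GATA6, and the gap between the class medians came from GATA2 alone among the genes that passed.

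Summed over GATA1 to GATA6, GATA mRNA amounted to 315.46 FPKM in the WT library against 245.57 FPKM in the MEIS2-/- one, so 77.8% remained. Of the 69.89 FPKM between these sums, 49.95 FPKM, or 71.5%, was the difference in GATA2. The other 5 genes together kept 91.2% of their WT level. The share of GATA2 in the GATA sum was 28.5% in WT cells and had shrunk to 16.3% in MEIS2-/- cells. GATA1 to GATA3 together held 46.1% in WT cells and 38.8% in MEIS2-/- cells, and GATA4 to GATA6 held 53.9% and 61.2%. In WT cells GATA2 came first, the close pair GATA6 and GATA4 next, then GATA3, GATA5 and GATA1. In MEIS2-/- cells GATA4 came first, the close pair GATA6 and GATA3 next, then GATA2, GATA5 and GATA1. GATA4 took the first place in MEIS2-/- cells without having risen.

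**Figure D1:**
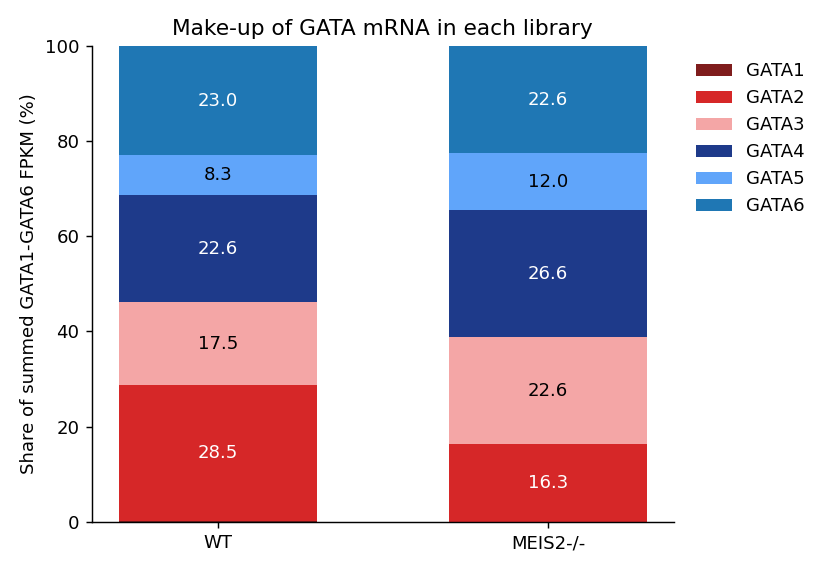
Share of the summed FPKM of GATA1 to GATA6 held by each factor (vertical axis, percent) in each genotype, 1 library each. Red shades are GATA1 to GATA3 and blue shades GATA4 to GATA6; GATA2 shrinks from 28.5% to 16.3%, the shares of GATA3, GATA4 and GATA5 widen, and GATA1 is too low to be seen.

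The cofactors differed from each other. ZFPM1, the partner of GATA1 and GATA2 in blood, was at 12.77 FPKM (WT) and 11.48 FPKM (MEIS2-/-), a log2 fold change of -0.15. ZFPM2, the partner of GATA4 in heart and gonad, was at 4.34 FPKM and 1.39 FPKM, so that 32.0% remained, with a log2 fold change of -1.58. A more negative log2 fold change was seen in 3.52% of all genes that passed. At 1.39 FPKM, ZFPM2 lay just above the level of 1 FPKM in MEIS2-/- cells, and its log2 fold change shrank to -1.16 with a pseudocount of 1. ZFPM1 exceeded ZFPM2 2.94-fold in WT cells and 8.26-fold in MEIS2-/- cells.

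Both cofactors together were far less abundant than their partners. Each FPKM of ZFPM1 plus ZFPM2 was matched by 18.4 FPKM of GATA1 to GATA6 in WT cells and by 19.1 FPKM in MEIS2-/- cells. For ZFPM2 against GATA4 to GATA6 the ratio was 39.2 in WT cells and 108 in MEIS2-/- cells. Within the blood pair the factor GATA2 fell and its cofactor ZFPM1 lay within 2-fold, whereas within the heart pair the cofactor ZFPM2 fell and the factors GATA4 to GATA6 lay within 2-fold. These are mRNA levels, and protein was not measured in these libraries.

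**Figure D2:**
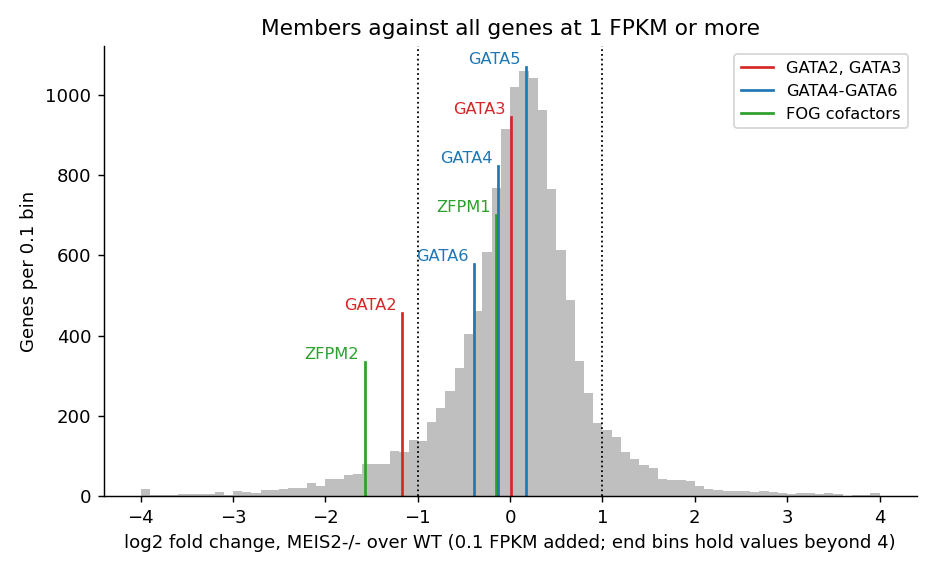
Log2 fold change, MEIS2-/- over WT, of the 7 genes of the family at 1 FPKM or more (coloured vertical lines, whose heights are set only to separate the names) over the distribution of all 13075 genes that passed (grey, genes per bin of 0.1). Dotted lines mark 2-fold; ZFPM2 at -1.58 and GATA2 at -1.17 lie beyond it, and the other 5 lie in the body of the distribution.

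The genes that act with GATA factors at DNA were then described from lists of textbook partners. In blood, GATA2 and GATA1 work in a complex with TAL1 or LYL1, an E protein such as TCF3, the adaptor LMO2 and the scaffold LDB1. Of 22 listed partners, 19 passed 1 FPKM, of which 7 (36.8%) were at least 2-fold lower, against 7.97% of all genes, and 1 (5.26%), LMO4, was higher, against 7.84%. All 19 reached 1 FPKM in both libraries. The largest falls were those of ERG (6.82 to 1.43 FPKM), LYL1 (29.93 to 7.81 FPKM) and TAL1 (27.37 to 7.71 FPKM), with log2 fold changes of -2.18, -1.92 and -1.81. LMO2, which bridges TAL1 to GATA factors, went from 49.09 to 17.64 FPKM, a log2 fold change of -1.47, more negative than that of GATA2. The other genes that fell were LDB2 (28.60 to 8.73 FPKM), a relative of LDB1, FLI1 (16.78 to 5.90 FPKM) and GFI1 (18.95 to 7.49 FPKM). Of the core complex described above, LDB1 (72.13 and 65.38 FPKM) and TCF3 (96.73 and 106.36 FPKM) lay within 2-fold, as did the LDB1 partner SSBP3 (95.21 and 101.37 FPKM). KLF1, the erythroid partner of GATA1, was at 6.88 FPKM and 4.04 FPKM, a log2 fold change of -0.75. RUNX1 (0.71 and 0.87 FPKM), SPI1 (0.48 and 0.15 FPKM) and GFI1B (0.65 and 0.77 FPKM) did not reach 1 FPKM.

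The complexes that FOG proteins recruit stayed within 2-fold throughout. All 15 listed subunits of NuRD and CtBP passed, and none was 2-fold lower or higher. Lists this short cannot be set apart from all genes that passed, of which 84.2% lay within 2-fold. Their log2 fold changes ran from -0.31 for MBD2 to 0.60 for MTA3, with a median of 0.25. CTBP1 was at 104.23 FPKM in the WT library against 107.20 FPKM in the MEIS2-/- one, and MBD3 at 85.44 FPKM and 121.36 FPKM. Of the 9 further genes with a GATA-type zinc finger, 5 of which are also in the NuRD list, none changed 2-fold; TRPS1 had the most negative log2 fold change, -0.67, at 1.09 and 0.65 FPKM. Among 15 coactivators and regulators of GATA protein turnover, HDAC5, a histone deacetylase, fell from 43.33 to 15.43 FPKM, and CREBBP, an acetyltransferase, rose from 6.86 to 15.02 FPKM. The other 13 (86.7%), including the CREBBP relative EP300, lay within 2-fold, near the share of all genes.

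Genes with known links to GATA2 in hemogenic endothelium were mostly lower. Of 28 such genes 24 passed, 15 of them (62.5%) at least 2-fold lower against 7.97% of all genes. Another 2 (8.33%) were higher, near the 7.84% of all genes. The median log2 fold change was -1.48. ETV2, which opens the endothelial and blood program, fell from 109.62 to 17.54 FPKM, and KDR, the VEGF receptor, from 323.77 to 61.98 FPKM. The higher genes were KIT, the stem cell factor receptor and a direct GATA2 target, from 3.33 to 10.02 FPKM, and EDN1, which encodes endothelin and has a GATA site in its promoter, from 1.79 to 13.28 FPKM. Their log2 fold changes were 1.56 and 2.82. KIT and EDN1 thus moved opposite to GATA2, but a count of 2 higher genes lies near the share of all genes. SOX17 was also higher, though within 2-fold, from 141.01 to 264.03 FPKM. Of the 24 genes, 20 had a lower value in MEIS2-/- cells and 4 a higher one. Over the whole list the summed level was 985.94 FPKM (WT) and 510.96 FPKM (MEIS2-/-), and none of the 28 genes was at 0. KIT is also expressed by cell types other than endothelium. The part that the number of endothelial cells has in the lower GATA2 was not tested. Of the 28 genes, 6 are also in the list of complex partners.

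Of 31 erythroid genes linked to GATA1, 27 were found in the tables and 19 passed, of which 78.9% lay within 2-fold, near the 84.2% of all genes. Of these, 3 were at least 2-fold lower, GYPB and GYPE among them, and 1, HBE1, the embryonic globin, was higher, from 0.42 to 2.06 FPKM. The count of 3 became 5 without a filter and under both scalings that centre the libraries. It became 2 with a pseudocount of 1 and with a filter of 5 FPKM. GYPB went from 8.98 to 1.63 FPKM and GYPE from 9.68 to 2.03 FPKM, but these genes are near-identical copies whose reads can be assigned to each other, so they do not count as separate falls. The median log2 fold change of the list was -0.54, and 1 listed gene was at 0 in WT cells and 2 were in MEIS2-/- cells. EPOR, the erythropoietin receptor, was at 22.68 FPKM and 11.65 FPKM, a log2 fold change of -0.96. Both alpha globins, HBA1 and HBA2, stayed at or below 0.35 FPKM.

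Of 16 megakaryocyte genes, 15 were found and 7 passed, 2 of them (28.6%) lower and 1 (14.3%) higher, against 7.97% and 7.84% of all genes. The count of 2 ran from 1 to 3 over the pseudocounts, filters and scalings tried. GP1BB, a subunit of the von Willebrand factor receptor, went from 17.70 to 3.45 FPKM. ITGA2B, which encodes CD41, went from 4.16 to 2.03 FPKM, exactly at the 2-fold limit. ITGB3, its integrin partner, went the other way, from 0.41 to 3.27 FPKM. Among 10 blood surface markers 8 were found and 4 passed, with a median log2 fold change of -0.81 that turned to 0.18 over all 8. SPN, which encodes CD43, was at 1.84 FPKM and 1.16 FPKM, and PTPRC, which encodes CD45, at 0.45 FPKM and 0.89 FPKM, so both of these leukocyte markers were below 2 FPKM. CD38 went from 0.73 to 3.94 FPKM. Of the 15 genes of T cells and mast cells, where GATA3 and GATA2 act, 11 were found, 2 passed (CD4 and TCF7), and neither changed 2-fold.

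Genes that accompany GATA2 and GATA3 in trophectoderm and amnion split. Of 24 listed, 23 were found and 17 passed, 9 of them (52.9%) at least 2-fold higher against 7.84% of all genes and 3 (17.6%) lower against 7.97%. Of the 9, KRT7, VTCN1 and DLX5 reached 1 FPKM only in MEIS2-/- cells and passed through the library in which they were high. Over the 14 genes that reached 1 FPKM in each library, a filter chosen after the data were seen, 6 (42.9%) were higher and the median was 0.57, against 1.93 over the 17, and the share of higher genes over all genes was 5.72%. Among the 6, TFAP2C, a trophectoderm factor, rose from 10.41 to 68.29 FPKM and CDX2 from 4.83 to 21.24 FPKM. KRT7 went from 0.51 to 16.68 FPKM, GABRP, an amnion marker, from 1.06 to 11.42 FPKM, and VTCN1 from 0.37 to 4.15 FPKM. The lower genes were the simple epithelium keratins KRT8, KRT18 and KRT19; KRT8 went from 2871.22 to 1227.58 FPKM. The summed level of the list was 6906.35 FPKM in the WT library against 3424.82 FPKM in the MEIS2-/- one, a sum dominated by these keratins. TFAP2B, ELF5 and VGLL1 were listed at 0 in WT cells, and CGA was listed at 0 in MEIS2-/- cells. GATA3 itself was level, and the part that cells of this kind have in its level was not tested.

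Among genes linked to GATA4 and GATA6 in endoderm, 33 of 34 passed 1 FPKM. Of these 14 (42.4%) were at least 2-fold higher against 7.84% of all genes. HHEX and GSC were lower, a count of 2 (6.06%) near the 7.97% of all genes, and GSC reached 1 FPKM only in WT cells. Of the 14, 6 reached 1 FPKM only in MEIS2-/- cells, TTR, APOB and AFP among them, and passed through the library in which they were high. Over the 25 genes that reached 1 FPKM in each library, 8 (32.0%) were higher, against 5.72% of all genes under that filter, and the median log2 fold change was 0.26, against 0.87 over the 33. HNF4A, a regulator of visceral endoderm and liver, rose from 6.4 to 29.08 FPKM. TTR, APOB and AFP, secreted products of visceral endoderm and liver, rose from 0.38 to 5.31 FPKM, from 0.27 to 3.72 FPKM and from 0.32 to 3.91 FPKM. APOA1 rose from 401.38 to 879.13 FPKM. The basement membrane collagens COL4A1 (log2 fold change 0.13) and COL4A2 (0.30), which GATA6 is known to induce in primitive endoderm, lay within 2-fold. The summed level of the list was 1387.94 FPKM and 2224.17 FPKM. GATA4 and GATA6 themselves were within 2-fold and at lower values in MEIS2-/- cells.

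Among heart genes the counts lay on the lower side. Of 30 genes linked to GATA4 to GATA6, 29 were found and 26 passed, 9 of them (34.6%) at least 2-fold lower, against 7.97% of all genes, and none higher, with a median of -0.60. Over the 22 that reached 1 FPKM in each library 7 (31.8%) were lower, against 5.8% of all genes under that filter. The count of 9 became 5 with a pseudocount of 1, and at a threshold of 1.5-fold 14 were lower and 4 higher. HAND2, a heart field factor, fell from 44.27 to 8.08 FPKM, NKX2-5, which binds GATA4 directly, from 59.77 to 16.55 FPKM, and BMP10, a heart ligand, from 2.29 to 0.74 FPKM. BMP10 reached 1 FPKM only in WT cells and passed through the library in which it was high. CITED2, a coactivator, fell from 341.20 to 140.78 FPKM. ACTC1, cardiac actin, stayed at 391.74 and 357.35 FPKM, and HAND1 was at 357.53 and 265.24 FPKM. Beside these genes stood ZFPM2 at -1.58 and GATA4 at -0.13.

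**Figure D3:**
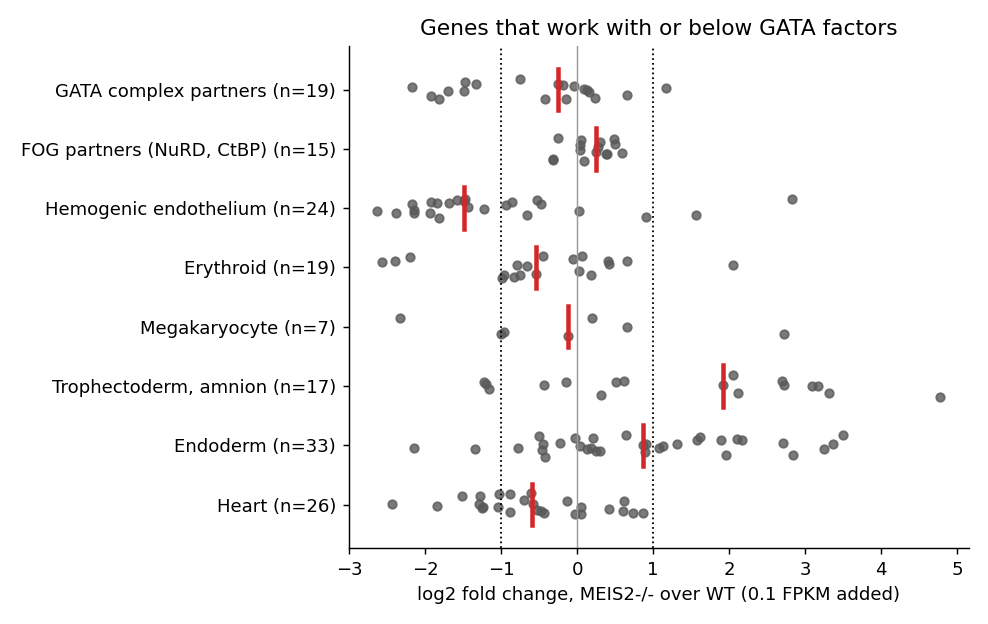
Log2 fold change, MEIS2-/- over WT, of the genes at 1 FPKM or more in 8 lists of GATA partners and GATA-linked genes (1 point per gene, jittered vertically; red bar, median of the list; dotted lines, 2-fold). The hemogenic endothelium list has the most negative median, -1.48, the FOG partners cluster within 2-fold, and the endoderm list has a median of 0.87 (0.26 without genes under 1 FPKM in either library) against -0.60 for the heart list.

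Other marker lists were read in the same way for the cells a day 4 culture could hold. Of 12 pluripotency markers 9 passed, 5 of them (55.6%) higher, against 7.84% of all genes, and none lower. Their summed level was 657.88 FPKM (WT) and 1962.96 FPKM (MEIS2-/-), most of it POU5F1, which rose from 285.65 to 1454.14 FPKM. LIN28A was at 187.31 and 204.79 FPKM, DNMT3B at 76.91 and 45.35 FPKM, and SOX2 at 0.09 and 0.15 FPKM. Of 13 mesoderm markers 12 passed, 4 (33.3%) lower and 2 (16.7%) higher, against 7.97% and 7.84% of all genes. Their median was -0.78. Of 11 neuroectoderm markers 4 passed, and 2 (50%), OTX2 among them, were lower, against 7.97% of all genes. A count among 4 genes is too small to be set apart from that background. All 15 housekeeping genes passed, with 1 (6.67%), PGK1, lower, near the 7.97% of all genes, and none higher. Their median of 0.03 turned to -0.08 after the scaling to a median ratio of 1. The part these differences in cell markers have in GATA2 and ZFPM2 was not tested.

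The neighbourhood of each gene on its chromosome was examined in the GRCh38.p14 gene order, taking the nearest gene on each side that the tables list. Of these 16 flanking genes 12 passed 1 FPKM, none was at least 2-fold lower and 1 was higher. Over all genes that passed, 7.97% were lower and 7.84% higher, so these counts lie near that background. GATA2 on chromosome 3 lies between EEFSEC (13.90 and 14.04 FPKM) and RPN1 (133.44 and 114.63 FPKM), with log2 fold changes of 0.01 and -0.22. The flanking genes of ZFPM2 are LRP12, with a log2 fold change of -0.48, and OXR1, with 0.00. The 1 higher neighbour was RBBP8NL beside GATA5 on chromosome 20, at 0.10 FPKM in the WT library against 2.43 FPKM in the MEIS2-/- one. The other flanking genes that passed lay within 2-fold, with log2 fold changes of 0.69 for SUV39H1 and 0.02 for HDAC6 beside GATA1, -0.21 for TAF3 and -0.12 for CELF2 beside GATA3, -0.33 for NEIL2 beside GATA4, -0.03 for MIB1 beside GATA6 and 0.08 for ZC3H18 beside ZFPM1. BLK, MIR1-1HG, CTAGE1 and ZNF469 stayed under 1 FPKM. The genes beside GATA2 and ZFPM2 thus lay within 2-fold, as did 84.2% of all genes that passed. RefSeq names an antisense RNA gene for 5 of the family (GATA2, GATA3, GATA6, ZFPM1 and ZFPM2), none of which is among the 17397 listed genes. No source states that strand was used in counting, so reads from such partners cannot be told apart from those of the gene.

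The genes nearest to each factor in the plane of both libraries were named as a last description, by the distance between log2(FPKM + 0.1) values over the 2 libraries. CSRP2 (96.92 and 41.59 FPKM), EPHA2 (98.69 and 39.17 FPKM) and ZFP36L1 (98.81 and 37.72 FPKM) lay nearest to GATA2, at distances of 0.12 to 0.16. IGFL3, SLC2A4 and TCF15 lay nearest to ZFPM2, at 0.09 to 0.12. Nearest to GATA3 were MRPS2, LAMTOR2 and TRAF7, and nearest to GATA5 were GNA12, TMEM115 and DIO3. Nearest to GATA4 were LDB1, at 0.02, IP6K2 and CHMP2A, and nearest to GATA6 were MOGS, at 0.0018, MXRA8 and GLO1. RAD9A, PCCA and DONSON lay nearest to ZFPM1. Over 2 libraries such nearness reflects level and fold only.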

How the data were processed

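RNA-Seq was compared between 1 WT and 1 MEIS2-/- library from H1-derived cells at day 4. Libraries were made with a TruSeq kit from 3 ug of total RNA. The authors deposited FPKM values with 2 decimals, 1 per gene and library; depth per library is unknown. The submitters' processing notes name BWA, Bowtie, RSEM and hg19, without roles or versions. NCBI Gene numbers were matched to RefSeq symbols (GRCh38.p14) for 17365 of 17397 genes. Whole-read steps were sought in low values of genes with 1 transcript; agreement, where 1 is complete, was 0.155 in WT and 0.154 in MEIS2-/- cells.

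Log2 fold changes used a pseudocount of 0.1 FPKM, a filter of 1 FPKM in at least 1 library and a 2-fold threshold, on values as deposited. The filter left 13075 genes and removed 4322. No test was possible with 1 library per genotype. The members and all 16 lists were chosen with earlier results of these data known, so no list is independent support; 26 genes stand in more than 1 list.

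Genes to name were the 8 members, MEIS2, up to 3 largest rises and falls of each list, list genes at 100 FPKM or more, the flanking genes and the 3 genes nearest to each member. Further list genes were named for their role, after their values were seen. The names printed are part of those the rule allows, and some are not reported here. A filter of 1 FPKM in both libraries was added after the data were seen. A planned comparison of zinc finger proteins was not made. Computations were tested on simulated data and used Python 3.11.15, numpy 2.4.6 and pandas 2.3.3, with matplotlib 3.10.9 for plots. Alternatives were other pseudocounts, filters, thresholds and scalings (median ratio, TMM, the trimmed mean of M values, on FPKM with 30% of ratios and 5% of means trimmed per side, and an equal sum in both libraries).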

Additional observations from a re-analysis of the deposited data

How the results depend on the processing

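With 1 library per genotype no replicate could be left out. No paired analysis was possible because each genotype has 1 library. Across the pseudocounts and scalings tried, GATA2 (-1.28 to -1.15) and ZFPM2 (-1.68 to -1.16) stayed more than 2-fold lower. GATA3 (-0.11 to 0.03), GATA4 (-0.24 to -0.10), GATA5 (0.06 to 0.19), GATA6 (-0.50 to -0.37) and ZFPM1 (-0.27 to -0.13) stayed within 2-fold, and of these only GATA3 changed sign. A filter cannot change the value of a single gene. The median of GATA1 to GATA3 became -1.17 without a filter, since GATA1 then counts. The number of members at least 2-fold lower, 2, became 1 with a filter of 5 FPKM, which removes ZFPM2, and 0 at a 4-fold threshold.

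The counts over all genes, 1042 lower and 1025 higher, became 693 and 623 with a pseudocount of 1, 598 and 554 with the filter of 5 FPKM, 1890 and 2353 at 1.5-fold, and 241 and 194 at 4-fold; without a filter 1516 were lower and 1567 higher. The scalings that centre the libraries gave 1197 lower and 833 higher (median ratio) and 1179 and 853 (TMM). The share of GATA1 to GATA3 in the GATA sum became 24.6% in WT cells without GATA2 and 52.9% in MEIS2-/- cells without GATA4, the highest gene of each. Of 569 alternative values over members, lists and promoter windows, 489 kept their direction and side of the threshold or stayed within 1.5 times. This tally includes the single-gene values under each filter, which were fixed in advance. No value past 2-fold changed sign. Signs of smaller values did change, for GATA3, for the medians of the GATA-type zinc finger genes (0.08 to -0.04) and housekeeping genes (0.03 to -0.08) under the median-ratio scaling, and for the blood surface median without a filter (-0.81 to 0.18). With a filter of 5 FPKM the endoderm genes counted as higher went from 14 to 9 and their median from 0.87 to 0.47. The level of GATA1 is too low for a fold at unknown depth. The 2 scalings that centre the libraries move the median of all genes from 0.12 to 0.01 and 0.02.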
